A study of Mus musculus with 4 samples.

Results

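The genes described are 37 genes of glucose handling: 3 glucose transporters, 17 enzymes that turn glucose into pyruvate, 2 enzymes that set the level of a phosphofructokinase activator, 6 enzymes that decide where pyruvate goes, 2 lactate transporters and the 7 enzymes of the pentose phosphate pathway. They were found by gene symbol among the 31053 genes of the files, as a set defined by function, and all 37 had enough counts to be among the 13869 genes tested. A second row with the symbol Aldoa held at most 0.0145 CPM in any library and was not tested (CPM is the count of a gene per 1000000 UMIs of a library, over cells alone, and a UMI stands for 1 captured molecule).

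Single-cell RNA sequencing was performed on BM macrophages of male C57BL/6J mice, grown from bone marrow with the growth factor M-CSF for 4 days. The study's legend for this experiment gives an age of 4 weeks, and its methods give 4 to 6 weeks for BM macrophages in general. Efferocytic BM macrophages were cultured for 16 to 18 h with CFSE-labeled apoptotic RM1 cells, a murine prostate cancer line made with Ras and Myc, and sorted as F4/80+CFSE+. Non-efferocytic BM macrophages were sorted as F4/80+. The study's discussion calls them BM macrophages alone, while its methods describe co-culture and then the sorting of both groups. Whether the non-efferocytic cells had met apoptotic cells is therefore not settled by the sources used here. Exposure to apoptotic cells was not tested apart from their uptake. Each of 2 experiments gave 1 library per group, holding 8280 (non-efferocytic) and 6695 (efferocytic) cells in Experiment 1 against 13411 and 8408 in Experiment 2. These are barcodes of the unfiltered matrices that passed the thresholds given below. Each count is above the one the study lists, most so for the non-efferocytic library of Experiment 2. The study states in general that its BM macrophage experiments drew on several independent mice per group, and the number behind each library is not given in the sources used here. The non-efferocytic cells held a mean of 12224 and 10316 UMIs (Experiments 1 and 2) and the efferocytic cells 18670 and 18462. More UMIs were thus counted per efferocytic cell, and all CPM values below are shares of that total. UMIs per cell also depend on the reads spent per cell and can include engulfed RNA, and the part of either was not tested. Over all barcodes the libraries held 117155896 (non-efferocytic) and 142894986 (efferocytic) UMIs in Experiment 1, and 178218821 and 173577602 in Experiment 2.

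Glycolysis splits glucose in a run of steps into pyruvate, yielding a little ATP and NADH, and lactate dehydrogenase then turns pyruvate into lactate, which leaves the cell through monocarboxylate transporters. The pentose phosphate pathway branches off at glucose 6-phosphate: its oxidative arm makes NADPH, which the phagocyte oxidase and glutathione recycling use, and its non-oxidative arm exchanges sugars with glycolysis. Activated macrophages are known for high glycolysis, and many glycolytic genes are textbook targets of the hypoxia-inducible factors, which bind the core motif ACGTG or GCGTG. The question here was which steps, isozymes and pathways differed between efferocytic and non-efferocytic BM macrophages.

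Promoters are shown for 5 of the 6 genes with the largest increases among those of at least 10 CPM, to show where that motif lies in genes that moved together. Each run is 300 bases of RefSeq sequence (build GRCm38.p6) from 250 bases before to 50 after an annotated start, 5′ to 3′ on the gene's own strand, and capitals mark ACGTG or GCGTG on either strand (CACGT and CACGC are their reverse complements). They belong to Hk3 (ENSMUSG00000025877; chr13:55021336-55021635, minus strand), Ldha (ENSMUSG00000063229; chr7:46846832-46847131, plus strand), Pgam1 (ENSMUSG00000011752; chr19:41911621-41911920, plus strand), Gapdh (ENSMUSG00000057666; chr6:125165724-125166023, minus strand) and Tpi1 (ENSMUSG00000023456; chr6:124814109-124814408, minus strand).
Hk3: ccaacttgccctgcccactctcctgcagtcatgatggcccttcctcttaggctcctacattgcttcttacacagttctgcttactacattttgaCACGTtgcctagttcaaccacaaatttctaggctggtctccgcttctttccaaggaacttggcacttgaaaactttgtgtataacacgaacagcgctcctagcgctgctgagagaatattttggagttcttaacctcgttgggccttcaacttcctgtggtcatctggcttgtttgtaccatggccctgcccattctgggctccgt
Ldha: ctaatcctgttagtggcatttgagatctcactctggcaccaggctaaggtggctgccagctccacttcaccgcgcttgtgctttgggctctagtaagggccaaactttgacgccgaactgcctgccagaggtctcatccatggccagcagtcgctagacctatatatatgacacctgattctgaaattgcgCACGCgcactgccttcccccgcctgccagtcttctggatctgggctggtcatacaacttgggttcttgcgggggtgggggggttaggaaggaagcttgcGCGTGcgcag
Pgam1: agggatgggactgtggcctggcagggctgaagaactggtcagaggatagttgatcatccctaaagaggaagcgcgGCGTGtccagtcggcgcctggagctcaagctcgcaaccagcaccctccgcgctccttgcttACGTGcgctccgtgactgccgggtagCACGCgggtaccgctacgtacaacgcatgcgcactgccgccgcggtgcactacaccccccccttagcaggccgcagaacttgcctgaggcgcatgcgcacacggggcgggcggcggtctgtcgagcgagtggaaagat
Gapdh: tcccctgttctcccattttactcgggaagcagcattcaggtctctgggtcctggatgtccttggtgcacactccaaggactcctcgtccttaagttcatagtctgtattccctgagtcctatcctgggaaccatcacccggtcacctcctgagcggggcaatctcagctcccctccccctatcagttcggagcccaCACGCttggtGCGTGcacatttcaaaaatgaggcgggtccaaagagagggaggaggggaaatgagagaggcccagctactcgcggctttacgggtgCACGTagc
Tpi1: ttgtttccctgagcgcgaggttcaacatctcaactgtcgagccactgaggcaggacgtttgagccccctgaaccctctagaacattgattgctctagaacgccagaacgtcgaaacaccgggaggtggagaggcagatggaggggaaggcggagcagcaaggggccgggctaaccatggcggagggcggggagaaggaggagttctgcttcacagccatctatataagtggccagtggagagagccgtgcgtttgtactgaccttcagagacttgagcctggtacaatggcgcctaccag
The Hk3 window held 1 motif, the Ldha window 2, the Pgam1 and Gapdh windows 3 each, and the Tpi1 window none. Tpi1's window lies 138 bases from the start of its principal transcript, the others at most 52. Of all 32851 promoters of this length listed, 43.8% held either motif (ACGTG 19.6%, GCGTG 32.4%). That share counts every listed window, whereas each gene below enters with 1 window, the nearest to the start of its principal transcript. The 2 kinds of share are thus not alike, and their difference was not tested. A promoter was listed for 36 of the 37 genes, and 30 of these (83.3%) held either motif. The share was 14 of 17 (82.4%) among the genes called higher in efferocytic BM macrophages and 16 of 19 (84.2%) among the others. ACGTG, with or without GCGTG, was in 9 of the 17 (52.9%) and 6 of the 19 (31.6%), and GCGTG in 58.8% and 73.7%; these shares were not tested. By pathway, 12 of 17 glycolytic enzymes (70.6%) and 6 of 7 pentose phosphate enzymes (85.7%) held either motif. ACGTG was in 8 of the 17 glycolytic and 1 of the 7 pentose phosphate promoters. The shares of the genes keep all of the chosen windows, whatever their distance from the start of the principal transcript. Among them are those of G6pdx (314 bases away, the pentose phosphate window with ACGTG), Eno1 (244 bases) and Pkm (208 bases).

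Glycolytic enzymes were higher in efferocytic BM macrophages and pentose phosphate enzymes, apart from Rpe, were not called. Of the 37 genes, 17 rose and 4 fell (edgeR, adjusted p under 0.05 over all genes tested), where 19.9% of all genes tested rose and 19% fell. In 18 of the 37 genes both efferocytic libraries lay above both non-efferocytic ones, as in 22.2% of all genes, and in 6 both lay below, as in 44.7%. The median log2 fold change was 0.81 for the 17 glycolytic enzymes (11 higher, 0 lower) and 0.091 for the 7 pentose phosphate enzymes (1 higher, 0 lower), against -0.018 for all genes tested. These log2 fold changes are on a scale set by TMM (a scaling that centers most genes near 0). Scaled to UMIs per cell, the median of all genes was 0.60, that of the glycolytic enzymes 1.43 and that of the pentose phosphate enzymes 0.71, on which the larger UMI total of efferocytic cells is kept. With a non-efferocytic library left out and no block, edgeR called 0 of the 37 genes and at most 2 of all genes tested, while 17 of the 37 were higher at an unadjusted p under 0.05 and the glycolytic median was 0.85 (without that of Experiment 1) and 0.79 (without that of Experiment 2). With 10% of the UMIs removed as free RNA 10 of the 37 genes were called higher and 0 lower, against 1.46% and 0.953% of all genes tested, and the glycolytic median was 0.91. The calls lost were those on Slc2a1, Pfkp, Aldoa, Aldoc, Slc16a1, Slc16a3 and Rpe among the increases and all 4 decreases. None of these genes turned direction, with log2 fold changes of 1.11 for Slc2a1, 0.47 for Pfkp, 0.61 for Aldoa, 0.95 for Aldoc and -0.57 for Pfkfb4.

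**Figure D1:**
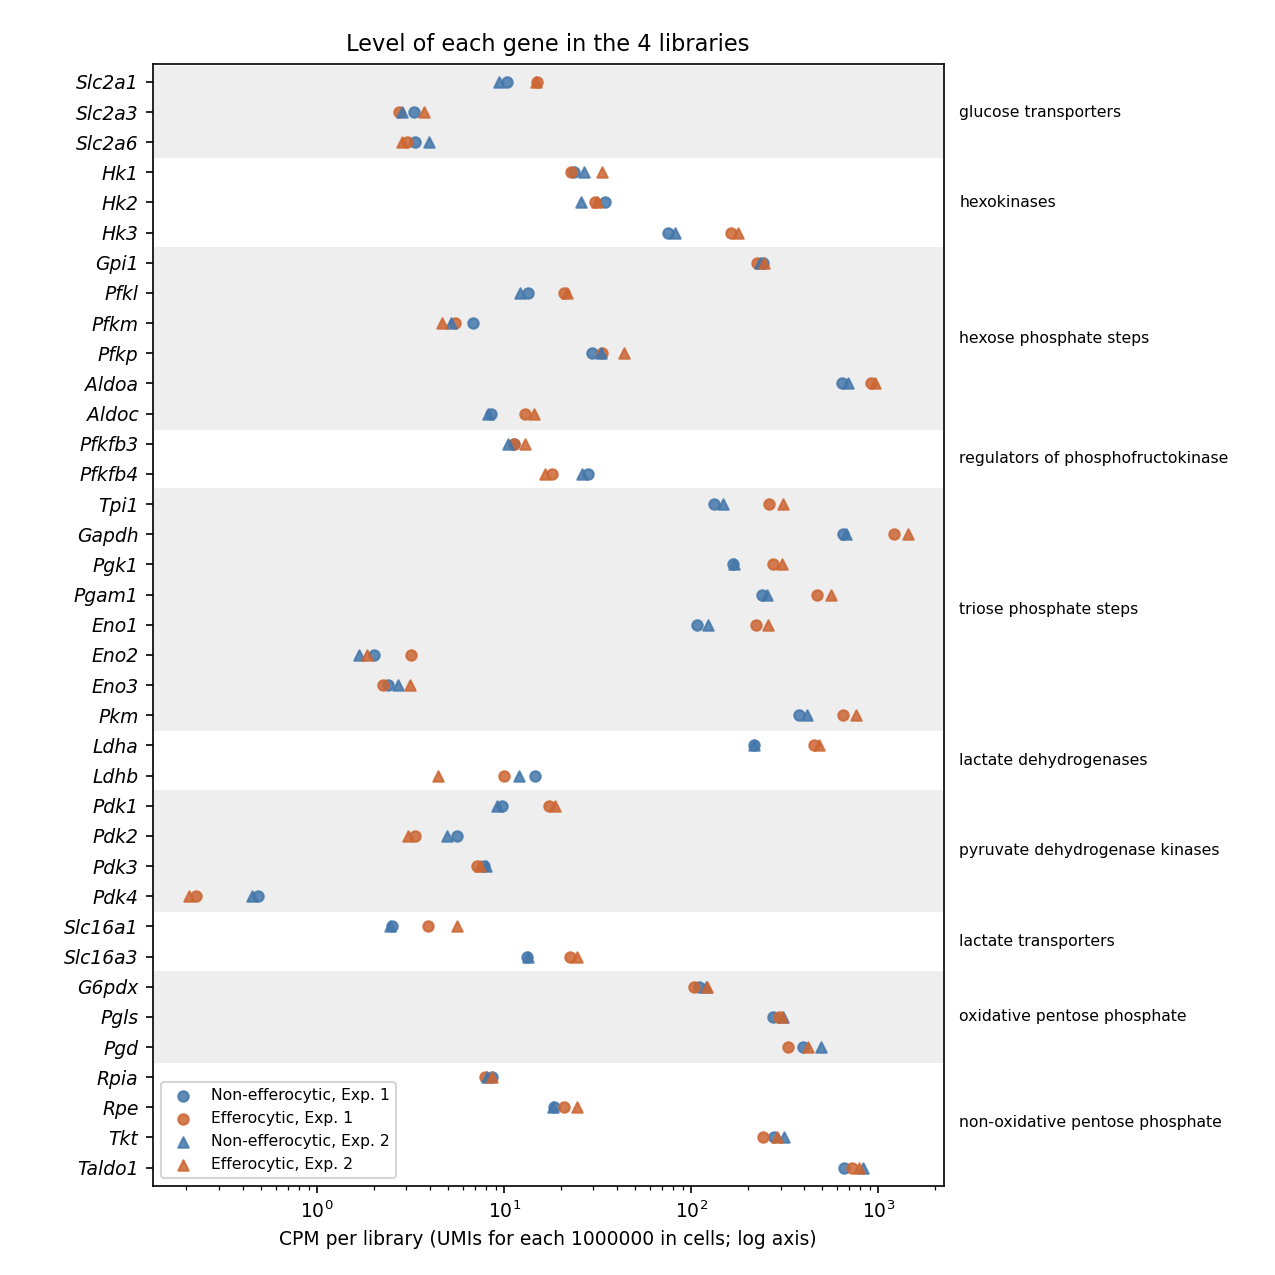
Level of each of the 37 genes in CPM on a log axis, 1 point per library (circles Experiment 1, triangles Experiment 2, blue non-efferocytic, orange efferocytic), grouped by step. Orange points lie right of blue ones for Hk3, Tpi1, Gapdh, Pgk1, Pgam1, Eno1, Pkm and Ldha, while the points of the pentose phosphate enzymes other than Rpe overlap.

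At the entry of glucose, 1 of 3 transporters and 1 of 3 hexokinases rose, where 19.9% of all genes tested did. Slc2a1 (GLUT1, the basal glucose transporter) was at 10.3 and 9.32 CPM in the non-efferocytic libraries of Experiments 1 and 2 and at 15 and 14.7 CPM in the efferocytic ones. It was higher in both experiments (log2 fold change 0.71, SE 0.087, adjusted p = 0.00080). Slc2a3 (GLUT3) ranged from 2.75 to 3.74 CPM with overlapping groups, and its 95% interval ran from -0.19 to 0.57. Slc2a6, a transporter of lysosomes in macrophages, was at 3.34 and 3.98 CPM against 3.02 and 2.85 CPM, without overlap but not called (log2 fold change -0.21, adjusted p = 0.28).

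Hexokinases trap glucose as glucose 6-phosphate, the branch point of both pathways. Hk3, the isozyme typical of myeloid cells, was at 74.9 and 81.9 CPM in non-efferocytic BM macrophages against 162 and 178 CPM in efferocytic ones. The groups were far apart and the experiments close together (log2 fold change 1.22, SE 0.085, adjusted p = 8.7e-05), an increase of the same size as that of Ldha below and, with it, the largest among the 37 genes. Hk2, the inducible isozyme, was at 34.6 and 25.6 CPM against 30.5 and 31.3 CPM, and the groups overlapped (log2 fold change 0.16, 95% interval -0.074 to 0.40). Hk1 was at 23.7 and 26.8 CPM against 22.8 and 33.3 CPM (log2 fold change 0.24, adjusted p = 0.072), with 0.0036 when the efferocytic library of Experiment 2 was left out and 0.47 without that of Experiment 1.

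In the steps from glucose 6-phosphate to the triose phosphates, 4 of 6 genes rose, where 19.9% of all genes tested did. Their median log2 fold change was 0.51. Gpi1, the isomerase that begins the run, was at 242 and 233 CPM in non-efferocytic BM macrophages against 223 and 245 CPM in efferocytic ones. It did not pass the test, with an interval of -0.13 to 0.30 that excludes an increase of the size seen further down. Of the phosphofructokinases, which commit sugar to glycolysis, the liver form Pfkl was at 13.3 and 12.2 CPM against 21.0 and 21.7 CPM (log2 fold change 0.85, SE 0.083, adjusted p = 0.00029). The platelet form Pfkp was at 29.3 and 32.9 CPM against 33.5 and 43.8 CPM, with the groups just apart. Its increase was small (log2 fold change 0.41, SE 0.078, adjusted p = 0.0051). The call was lost without the experiment as a block (log2 fold change 0.42, adjusted p = 0.084). Its 3′ end matched Pitrm1, which held 9865 UMIs. The search covered both strands, so whether reads could be shared between them was not settled. The muscle form Pfkm was at 6.85 and 5.20 CPM against 5.46 and 4.63 CPM and was not called (log2 fold change -0.14).

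Aldolase cleaves the hexose into a pair of trioses. Aldoa was at 640 and 690 CPM in non-efferocytic BM macrophages against 911 and 965 CPM in efferocytic ones (log2 fold change 0.60, SE 0.11, adjusted p = 0.0048). Aldoc was far less abundant, at 8.55 and 8.18 CPM against 12.9 and 14.4 CPM, and rose as well (log2 fold change 0.81, adjusted p = 0.00061). Neither gene's groups overlapped.

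The bifunctional Pfkfb enzymes make and remove fructose 2,6-bisphosphate, the activator of phosphofructokinase. Pfkfb4 was at 27.9 and 26.0 CPM in non-efferocytic BM macrophages against 18.1 and 16.6 CPM in efferocytic ones, so it fell in both experiments (log2 fold change -0.53, SE 0.080, adjusted p = 0.0019). Pfkfb3, the form with the strongest kinase activity, was at 11.2 and 10.5 CPM against 11.3 and 12.9 CPM (log2 fold change 0.26, adjusted p = 0.062). The direction of Pfkfb4 depended on the scale: per cell its log2 fold change was 0.087. Without the efferocytic library of Experiment 2 it was -0.43, and with 10% of UMIs removed as free RNA it was -0.57 and not called.

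In the triose phosphate steps, which make ATP and NADH, 6 of 8 genes rose, where 19.9% of all genes tested did. Their median log2 fold change was 1.01. Tpi1, the triose phosphate isomerase, was at 133 and 148 CPM in non-efferocytic BM macrophages against 262 and 311 CPM in efferocytic ones (log2 fold change 1.13, SE 0.091, adjusted p = 0.00014). Gapdh, which makes NADH, was at 647 and 675 CPM against 1206 and 1433 CPM (log2 fold change 1.10, SE 0.12, adjusted p = 0.00047). Pgk1, the first ATP-making enzyme, was at 166 and 170 CPM against 273 and 306 CPM (log2 fold change 0.89, SE 0.092, adjusted p = 0.00039). In all 3 genes the lowest efferocytic library lay well above the highest non-efferocytic one.

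Pgam1, a phosphoglycerate mutase, was at 240 and 255 CPM against 471 and 561 CPM (log2 fold change 1.16, SE 0.10, adjusted p = 0.00018). Eno1, the common enolase, was at 107 and 123 CPM against 223 and 257 CPM (log2 fold change 1.17, SE 0.090, adjusted p = 0.00013). Pkm, the pyruvate kinase of macrophages, was at 378 and 415 CPM against 646 and 758 CPM (log2 fold change 0.93, SE 0.11, adjusted p = 0.00057). These 3 genes again showed no overlap between groups, and the 3′ counts do not tell the Pkm splice forms apart. The minor enolases did not pass the test: Eno2 (1.67 to 3.18 CPM) had a log2 fold change of 0.52 (adjusted p = 0.051), which was 0.091 when efferocytic cells of Experiment 1 were left out and 0.94 when those of Experiment 2 were. Eno3 (2.24 to 3.15 CPM) had one of 0.18. The last 400 bases of Gapdh matched 66 other annotated genes at 97% identity or more, 64 of them pseudogenes, and those of Eno1 matched Eno1b. The matching genes that the files list held 627 and 169 UMIs, and how many reads such copies took from Gapdh and Eno1 is uncertain.

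**Figure D2:**
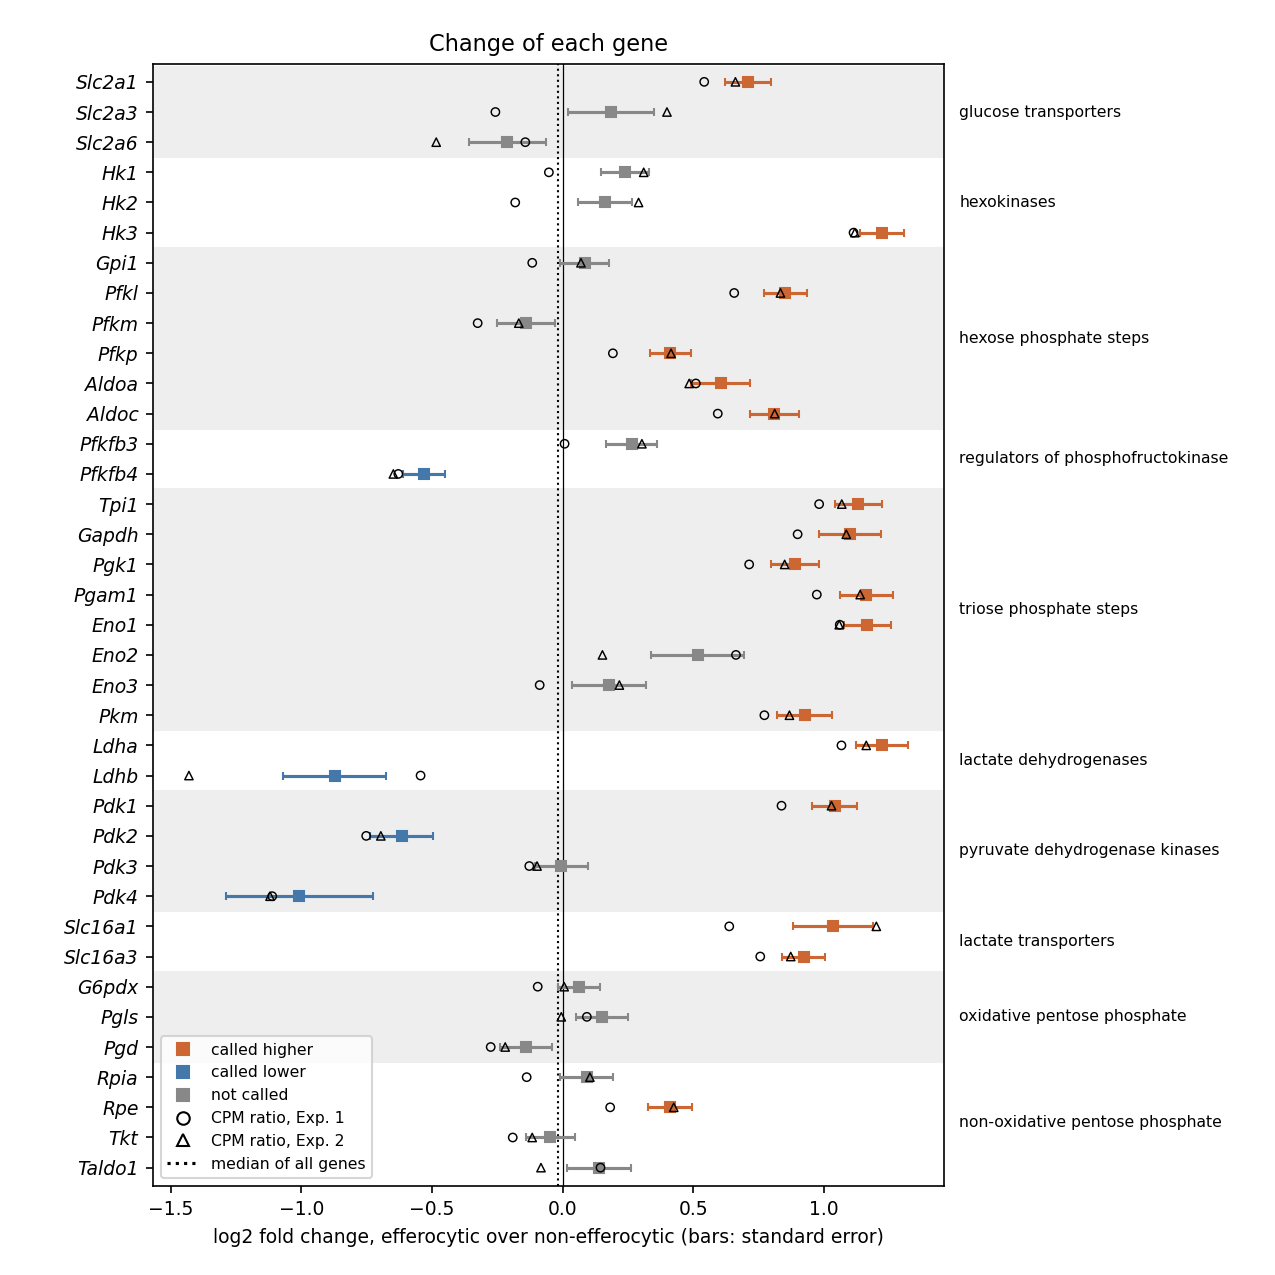
Log2 fold change of each gene, efferocytic over non-efferocytic BM macrophages (squares, with bars of 1 standard error; orange called higher, blue called lower, gray not called), with the log2 ratio of CPM within Experiment 1 (open circles) and Experiment 2 (open triangles); the dotted line marks the median of all genes, -0.018. The CPM ratios are not TMM-scaled, so a square can lie outside the ratios of its gene. Of the triose phosphate steps, Tpi1, Gapdh, Pgk1, Pgam1, Eno1 and Pkm lie near 1, Eno2 at 0.52 and Eno3 at 0.18. The pentose phosphate genes other than Rpe (0.41) lie near 0.

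At the fate of pyruvate, isozymes were called in opposite directions as shares of the UMIs. Ldha, whose subunit favors lactate formation, was at 215 CPM in both non-efferocytic libraries and at 451 and 482 CPM in the efferocytic ones (log2 fold change 1.22, SE 0.098, adjusted p = 0.00014). Ldhb (ENSMUSG00000030246), whose subunit favors pyruvate formation, was at 14.5 and 11.9 CPM against 9.97 and 4.43 CPM (log2 fold change -0.87, SE 0.20, adjusted p = 0.010). The groups did not overlap for either subunit, though for Ldhb the efferocytic libraries differed more from each other than the non-efferocytic ones did. The call on Ldhb was lost without the block (adjusted p = 0.22), with free RNA removed (-1.29, adjusted p = 0.13) and without the efferocytic library of Experiment 2 (-0.26). Scaled to UMIs per cell Ldhb was at -0.26 (adjusted p = 0.41), with 0.178 and 0.123 UMIs in a non-efferocytic and 0.186 and 0.0818 in an efferocytic cell, so that Experiment 1 showed no lower level on that scale. The UMIs of Ldha over those of Ldhb stood at 14.8 and 18.0 in non-efferocytic and at 45.3 and 109 in efferocytic BM macrophages.

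Pyruvate dehydrogenase kinases switch off the entry of pyruvate into the citric acid cycle. Pdk1 (ENSMUSG00000006494), a hypoxia-induced kinase, was at 9.69 and 9.14 CPM in non-efferocytic BM macrophages against 17.3 and 18.7 CPM in efferocytic ones (log2 fold change 1.04, SE 0.087, adjusted p = 0.00016). Pdk2 was at 5.59 and 4.94 CPM against 3.32 and 3.05 CPM (log2 fold change -0.62, SE 0.12, adjusted p = 0.0055). Pdk1 thus rose and Pdk2 fell, both without overlap between groups, while per cell Pdk2 had a log2 fold change of 0.0020. Pdk3 was at 7.81 and 7.94 CPM against 7.15 and 7.42 CPM and was not called (95% interval -0.24 to 0.23). Pdk4, a kinase of fasting and fat use, was the least abundant of the 37 genes, at 0.484 and 0.448 CPM against 0.224 and 0.206 CPM. It was called lower (log2 fold change -1.01, SE 0.28, adjusted p = 0.025), but not without the block (adjusted p = 0.062) or by DESeq2 (adjusted p = 0.30).

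Both lactate transporters rose, where 19.9% of all genes tested did. Slc16a3 (MCT4, the exporter of glycolytic cells) was at 13.2 and 13.3 CPM in non-efferocytic BM macrophages against 22.3 and 24.4 CPM in efferocytic ones (log2 fold change 0.92, SE 0.081, adjusted p = 0.00019). Slc16a1 (MCT1) was at 2.51 and 2.44 CPM against 3.90 and 5.60 CPM (log2 fold change 1.03, SE 0.15, adjusted p = 0.0018). Neither overlapped between groups, and Slc16a1 differed more between the experiments. With 10% of UMIs removed as free RNA both kept their direction but not the call (Slc16a3 1.20, adjusted p = 0.057; Slc16a1 1.24, adjusted p = 0.092).

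In the pentose phosphate pathway, 1 of 7 genes was called higher and 0 lower, where 19.9% and 19% of all genes tested were. Scaled to UMIs per cell 7 of 7 were called higher, as were 49.9% of all genes. The oxidative arm begins with G6pdx, the NADPH-making entry enzyme, which was at 110 and 120 CPM in non-efferocytic BM macrophages against 103 and 121 CPM in efferocytic ones (log2 fold change 0.062, 95% interval -0.13 to 0.25). Pgls, the lactonase, was at 275 and 308 CPM against 293 and 307 CPM (log2 fold change 0.15, interval -0.080 to 0.38). Pgd, which makes the second NADPH, was at 398 and 491 CPM against 329 and 421 CPM (log2 fold change -0.14, interval -0.37 to 0.089). All 3 groups of values overlapped, and each interval lies below the estimates of the triose phosphate genes that rose.

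In the non-oxidative arm, Rpe, the ribulose phosphate epimerase (ENSMUSG00000026005), was at 18.4 and 18.1 CPM against 20.9 and 24.3 CPM. It was called higher with a small increase (log2 fold change 0.41, SE 0.084, adjusted p = 0.0067). The log2 ratio of CPM was 0.18 in Experiment 1 and 0.43 in Experiment 2, and the call was lost with 10% of UMIs removed as free RNA. Its 3′ end matched Kansl1l, which held 3332 UMIs, in a search of both strands, so whether reads could be shared was not settled. Taldo1, the transaldolase and the most abundant gene of the pathway, was at 653 and 832 CPM against 722 and 786 CPM (interval -0.15 to 0.42). Tkt, the transketolase, was at 275 and 311 CPM against 241 and 287 CPM (interval -0.26 to 0.17). Rpia, the isomerase, ranged from 7.85 to 8.64 CPM (interval -0.15 to 0.33). These 3 genes overlapped between groups.

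Set side by side, the glycolytic enzymes summed to 2748 and 2907 CPM in non-efferocytic BM macrophages against 4509 and 5167 CPM in efferocytic ones, and the pentose phosphate enzymes to 1738 and 2089 CPM against 1717 and 1955 CPM. The ratio of the sums was 1.58 and 1.39 in non-efferocytic and 2.63 and 2.64 in efferocytic BM macrophages, so it differed more between groups than between experiments. Per cell, the glycolytic sum was 33.6 and 30.0 UMIs against 84.2 and 95.4 UMIs, and the pentose phosphate sum 21.3 and 21.5 UMIs against 32.1 and 36.1 UMIs. All 37 genes together took 0.481% and 0.531% of UMIs in non-efferocytic and 0.679% and 0.772% in efferocytic cells. A few abundant enzymes made up the glycolytic difference in CPM. Gapdh alone gave 31.8% of it in Experiment 1 and 33.5% in Experiment 2. Pkm gave 15.2% in each, Aldoa 15.4% and 12.2%, and Pgam1 13.1% and 13.5%. Hk3, with the largest fold change of these enzymes, gave 4.95% and 4.24%.

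Isozyme shares of the hexokinases, lactate dehydrogenases, pyruvate dehydrogenase kinases, phosphofructokinases, Pfkfb enzymes and glucose transporters differed between groups in both experiments, in the same direction for the isozymes named here. Here a share is the percentage of a family's UMIs, which in a 3′ assay count molecules whatever their length. Hk3 made up 56.2% (exact 95% binomial interval 55.4 to 57.1%, counting error only) and 60.9% of hexokinase UMIs in non-efferocytic and 75.2% and 73.3% in efferocytic BM macrophages. The shares of Hk2 and Hk1 were lower there, with Hk2 at 26.0% and 19.1% against 14.2% and 12.9%, although the level of neither gene was called. Ldhb made up 6.32% and 5.26% of lactate dehydrogenase UMIs against 2.16% and 0.912%. Pdk1 made up 41.1% and 40.7% of kinase UMIs against 61.8% and 63.6%, and Pdk2 23.7% and 22.0% against 11.9% and 10.4%. Pdk1 thus took the largest share in all 4 libraries and passed the other kinases combined in the efferocytic ones. Pfkl made up 26.9% and 24.2% of phosphofructokinase UMIs against 35.0% and 30.9%, with Pfkp the most abundant form in every library. Slc2a1 made up 60.9% and 57.8% of UMIs of the 3 glucose transporters against 72.2% and 69.1%. Pfkfb3 made up 28.7% of Pfkfb UMIs in both non-efferocytic libraries and 38.4% and 43.8% in the efferocytic ones. The aldolases had nearly the same mix throughout, with Aldoa between 98.5% and 98.8% in every library.

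**Figure D3:**
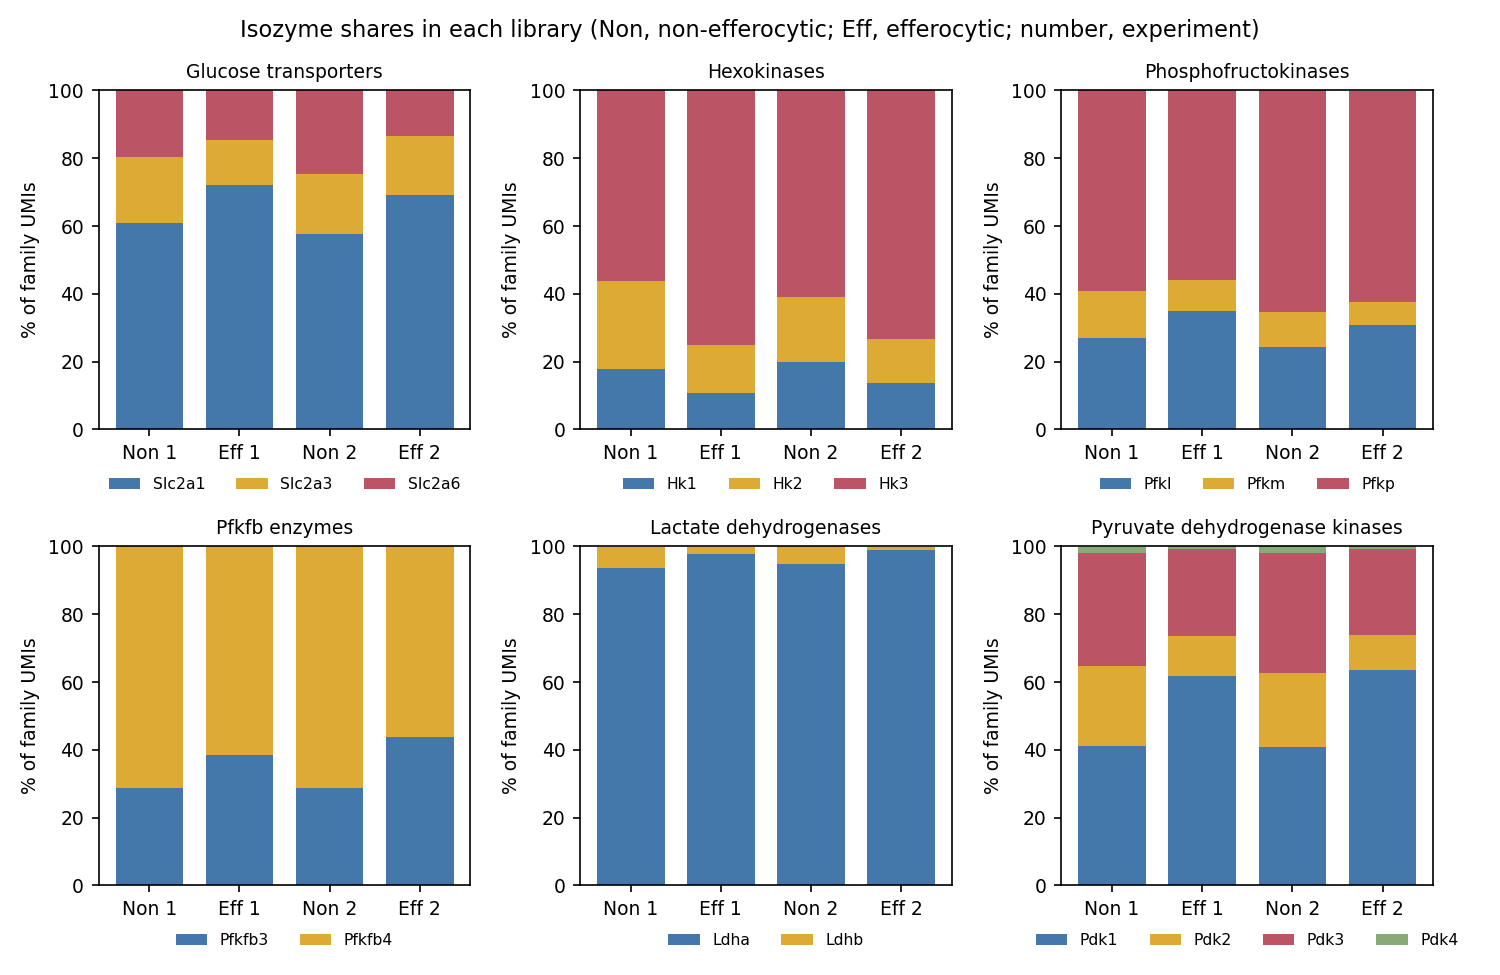
Share of each isozyme in the UMIs of its family (percent) in the 4 libraries, for 6 families; bars are stacked to 100%, with 1 bar per library and no error bars. Hk3, Pdk1 and Slc2a1 take larger shares in both efferocytic libraries, and Ldhb a smaller one.

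The difference in glycolytic enzymes was spread over the cells. To remove the difference in depth, each cell with at least 5000 UMIs was thinned to 5000, which left out 1099 and 3404 non-efferocytic and 544 and 505 efferocytic cells. A thinned cell held a median of 12 and 13 UMIs of the glycolytic enzymes in non-efferocytic and 19 and 23 in efferocytic BM macrophages. The 10th percentile of the efferocytic cells (12 and 15 UMIs) was at or above the non-efferocytic medians. The 90th percentile was 20 and 21 UMIs against 36 and 39 UMIs, so the efferocytic cells also spread more widely. For the pentose phosphate enzymes the medians were 8 and 10 UMIs against 8 and 9 UMIs.

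**Figure D4:**
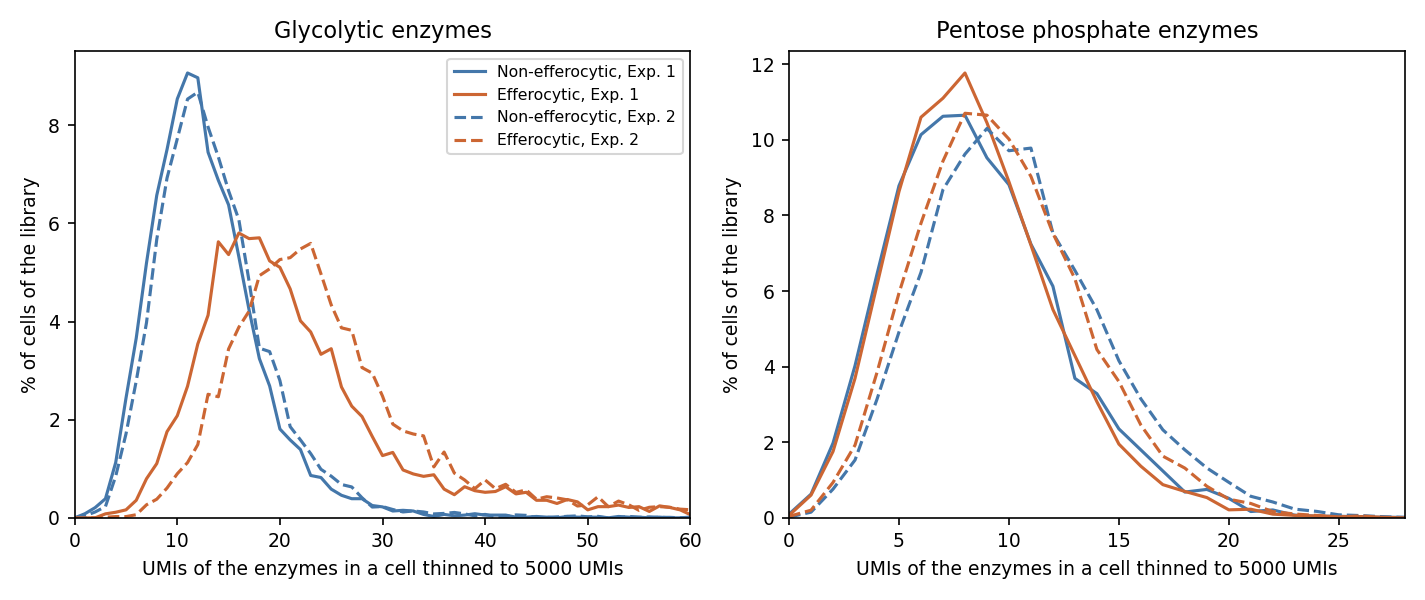
Percentage of cells (vertical axis) holding a given number of UMIs of the glycolytic enzymes (left) or the pentose phosphate enzymes (right) after each cell was thinned to 5000 UMIs, 1 line per library. The efferocytic curves lie to the right and are wider on the left panel, with medians of 19 and 23 against 12 and 13, and all 4 curves lie close together on the right panel.

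The level also varied with the depth of the cell, which itself differed between the groups. The part of depth in the difference between groups was not tested. In non-efferocytic BM macrophages the glycolytic sum was 2383 and 2379 CPM in cells of 1000 to 5000 UMIs and 3302 and 3482 CPM in cells of 20000 or more. In efferocytic BM macrophages it was 4506 and 4018 CPM in the shallow cells and 4574 and 5340 CPM in the deep ones. Within every depth class of both experiments the efferocytic sum was above the non-efferocytic one. In cells of 10000 to 20000 UMIs alone, 18 of 36 genes tested were called higher and 3 lower, where 16.6% and 15.9% of all 12439 genes tested were, and the median of the pentose phosphate enzymes was -0.061.

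**Figure D5:**
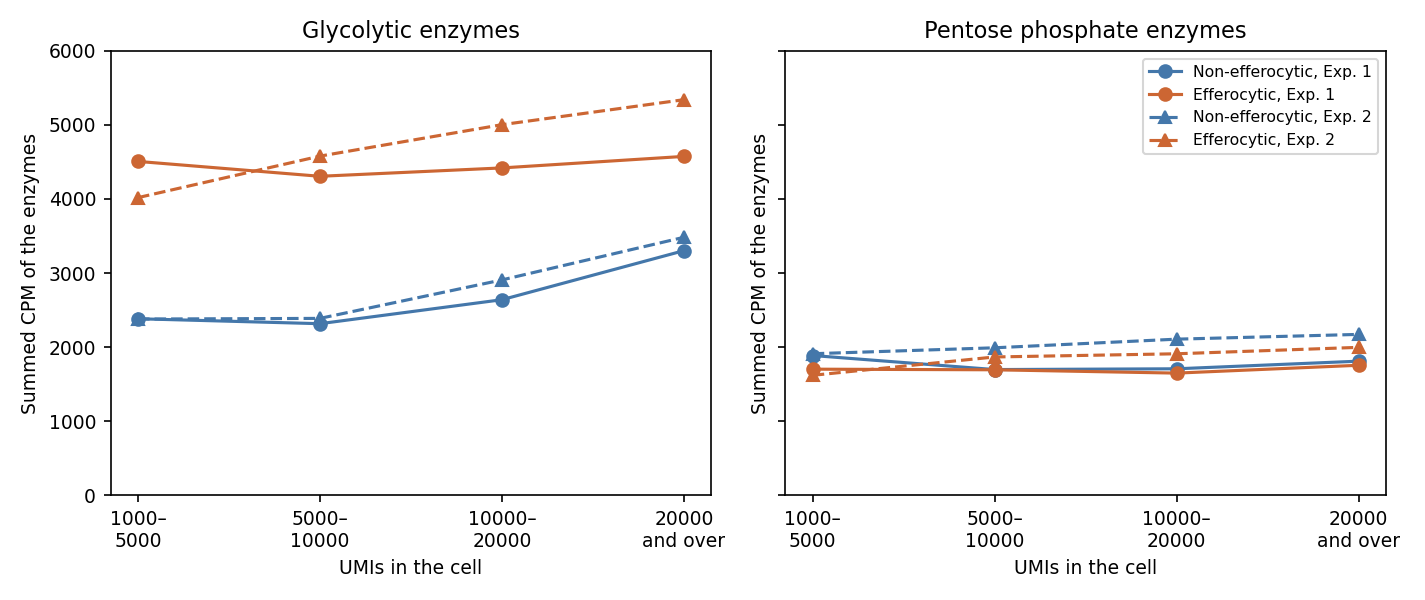
Summed CPM of the glycolytic enzymes (left) and of the pentose phosphate enzymes (right) in cells of 4 depth classes (UMIs in the cell), 1 line per library; both axes start at 0. The efferocytic lines lie above the non-efferocytic ones in each class on the left, the lowest at 4018 CPM against at most 3482 CPM, and all lines lie between 1620 and 2172 CPM on the right.

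Neighboring routes of carbon were read from the same test. Of 8 genes of the pyruvate carrier and the pyruvate dehydrogenase step, 5 rose and 0 fell, beside 19.9% and 19% of all genes tested (median log2 fold change 0.34). The carrier genes Mpc1 (-0.024) and Mpc2 (0.12) were not called. The largest increases were those of Pdp1, the phosphatase that reverses the Pdk kinases (log2 fold change 0.80), Pdha1 (0.39) and Dlat (0.39), subunits of pyruvate dehydrogenase. Of 17 citric acid cycle genes, 12 rose and 0 fell, beside the same 19.9% and 19%, with a median of 0.31, led by Idh3a (0.83), Sdhc (0.50) and Mdh2 (0.47). Of 6 other genes of NADPH supply, Mthfd1 (0.61) and Idh2 (0.28) rose and Aldh1l1, a folate enzyme, fell (-0.80). Of 47 other isozymes and side-branch genes, 30 were tested, 10 rose and 4 fell, counts to be set against 19.9% and 19% of all genes. Tigar, a phosphatase that removes fructose 2,6-bisphosphate (log2 fold change 0.72), Pgm2 (0.63) and Prps1, which turns ribose phosphate into a nucleotide precursor (0.58), rose most among those of at least 1 CPM. Pck2 (-0.74) and Khk, the fructokinase (-0.59), fell.

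Markers of other cells moved with the groups, and their counts stand beside 19.9% of all genes tested called higher and 19% lower. The macrophage markers were present in every library (sum 39627 and 34143 CPM in non-efferocytic, 31516 and 23866 CPM in efferocytic BM macrophages), and 6 of 10 fell, among them Csf1r (log2 fold change -1.15), Cd14 (-0.86), C1qa (-0.67) and Adgre1, which encodes the sorted F4/80 (-0.38), while Cd68 rose (0.63). Neutrophil markers fell in 9 of 9 genes, from 3046 and 3339 CPM to 953 and 705 CPM, and fibroblast markers in 4 of 7, from 146 and 122 CPM to 46.6 and 52.9 CPM. Lymphocyte markers fell in 2 of 5 tested genes and summed to at most 7.41 CPM. In another fit, cells were left out if they held 2 or more UMIs in sum of the neutrophil, fibroblast, lymphocyte and erythroid markers. This kept 74.4% of the non-efferocytic cells of Experiment 2 and 90.7% to 92.8% of the cells in each other library. In that fit 17 of the genes were called higher and 3 lower, where 18.7% and 18.2% of all genes tested were (Pdk4 then had too few counts to be tested). Of 7 cycling genes 3 rose and 1 fell (sum 175 and 167 CPM against 117 and 159 CPM). Erythroid genes summed to 48.2 and 51.5 CPM in Experiment 2 (non-efferocytic and efferocytic) and to at most 0.0320 CPM in Experiment 1.

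A list of 12 epithelial or tumor-cell genes that macrophages should lack was meant to trace RM1 RNA, but the study describes RM1 as fibroblast-like and no file shows that the line expresses them. Of the 11 that were tested 0 were higher in efferocytic BM macrophages by edgeR, at an unadjusted p under 0.05 as well, and 1, Krt7, was lower. Their sum went from 1.29 to 0.368 CPM (non-efferocytic to efferocytic) in Experiment 1 and from 12.2 to 9.87 CPM in Experiment 2, so it was higher in the non-efferocytic libraries. The part of RM1 RNA in the values was not tested. Free RNA, read from barcodes of 10 to 100 UMIs, held glycolytic enzymes at 2927 and 4483 CPM in the non-efferocytic and 3651 and 5199 CPM in the efferocytic libraries. Free RNA was thus above the cells in both non-efferocytic libraries (cells 2748 and 2907 CPM), slightly above in the efferocytic library of Experiment 2 (5167 CPM) and below in that of Experiment 1 (4509 CPM), and its part in the values was not tested beyond the removal of 10% given above. The non-efferocytic and efferocytic libraries of Experiment 2 shared 118 cell barcodes, where 16.6 would be shared by independent draws. With shared barcodes left out 17 of the 37 genes were called higher and 4 lower, where 19.5% and 18.9% of all genes tested were.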

How the data were processed

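The authors mapped reads of 10X Genomics 3′ libraries to mm10 with Cell Ranger (version 3.0.0 in the submitters' processing notes and the headers of Experiment 1, 3.1.0 in those of Experiment 2) and deposited unfiltered matrices of UMI counts for all barcodes, with no normalization. The clustering and tests on cells of the study were not repeated, and doublets were not removed.

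A barcode was taken as a cell at 200 or more genes, 1000 or more UMIs and a mitochondrial share of 10% or less. Their counts were summed per library, to between 101216659 and 155224183 UMIs, where a count of 0 allows at most 0.0193 to 0.0296 CPM (3 counts; counting error only). The sums of 13869 genes were tested under R 4.3.3 by the quasi-likelihood test of edgeR 4.0.16, after TMM scaling and filterByExpr, and the experiment was a block because the labels pair the libraries of an experiment and the study compared within experiments, with Benjamini-Hochberg adjustment over all genes and a threshold of 0.05. Libraries of 1 experiment deviated together from their group means (correlation 0.672 across 7097 genes, which are not independent). The standard error is the size of a log2 fold change over the square root of F, and intervals are 95% intervals of the same test. The test leaves 1 residual degree of freedom per gene and borrows the rest from all genes. With the experiment as a block, that 1 degree of freedom holds how far the group difference disagreed between the experiments. The p-values do not measure a spread between mice. The script was tested on simulated data. DESeq2 1.42.0 was an alternative, and alternatives are listed with their effect in the closing section.

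Isozyme shares, per-cell counts and free RNA are descriptions without a test. Near-identical 3′ ends were found with blastn 2.17.0 in GENCODE transcripts, and promoters are RefSeq's. All 37 genes are given. Of each related list up to 3 called genes per direction of at least 1 CPM are named, and promoters are those of the largest increases at 10 CPM or more (Eno1, also among these 6, is not printed because its listed start lies 244 bases from its principal one). The genes, lists and tests were chosen with earlier results of these data known.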

Additional observations from a re-analysis of the deposited data

Results flagged for a closer look

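In 9 of the 37 genes the log2 ratio of CPM, efferocytic over non-efferocytic, was positive in one experiment and negative in the other. With 1 library per group in an experiment the difference between experiments was not tested, and none of the 9 was called. These ratios lack the TMM scaling of the log2 fold changes, so the sign of a ratio near 0 depends on the scale. Over all genes tested the median log2 fold change was -0.12 with library totals and -0.018 with TMM. For Slc2a3 the ratio was -0.26 in Experiment 1 and 0.40 in Experiment 2. For the hexokinases it was -0.053 and 0.31 (Hk1) and -0.18 and 0.29 (Hk2), for Gpi1 -0.12 and 0.070, and for Eno3 -0.088 and 0.22. In the pentose phosphate pathway it was -0.096 and 0.0057 for G6pdx, 0.093 and -0.0054 for Pgls, -0.14 and 0.10 for Rpia, and 0.14 and -0.083 for Taldo1.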

How the results depend on the processing

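The main counts were 17 genes higher and 4 lower, with medians of 0.81 (glycolytic) and 0.091 (pentose phosphate). Over 21 alternatives the median of the glycolytic enzymes kept its direction. Without the replicate block 16 were higher and 2 lower, where 9.27% and 7.74% of all genes tested were, the calls on Pfkp, Ldhb and Pdk4 being lost. DESeq2 called 17 and 3, beside 14.3% and 10.2% of all genes tested. Scaled to UMIs per cell 31 were higher and 0 lower, where 49.9% and 4.23% of all genes were, with medians of 1.43 and 0.71. Scaled to library totals, which moved the median of all genes to -0.12, the pentose phosphate median was -0.015. A mean of at least 10 CPM leaves 27 of the genes. Of these 16 were higher and 2 lower, where 20.8% and 21.9% of all genes tested were. The pentose phosphate median was 0.0046 there, and in cells of 10000 to 20000 UMIs it was -0.061. With 10% of UMIs removed as free RNA 10 were higher and 0 lower, while calls over all genes fell to 192 and 125; the cause was not tested. Leaving out 1 library at a time, without the block and with the lone library assumed to vary like the other group, gave 0 to 18 higher, 0 to 3 lower, glycolytic medians of 0.79 to 0.85 and pentose phosphate medians of 0.0063 to 0.14. Without non-efferocytic replicate 1 or 2 none of the 37 was called by edgeR, nor were more than 2 of all genes (0 higher and 2 lower of 14207, and 0 and 0 of 14036), although 17 and 17 of the 37 were higher and 1 and 2 lower at an unadjusted p under 0.05. Without efferocytic replicate 2 none was called lower (2 at an unadjusted p under 0.05), where 4.04% of all genes were. These fits change both the libraries and the block. The calls on Pfkp, Pfkfb4, Ldhb, Pdk2, Pdk4 and Rpe were lost without efferocytic replicate 2 and that on Pdk4 without efferocytic replicate 1. Hk1 was called higher without efferocytic replicate 1 (adjusted p = 0.0499; 0.0036 to 0.47 over the 4 fits) and Eno2 without efferocytic replicate 2 (adjusted p = 0.0494; 0.091 to 0.94). Eno2 was also called in thinned cells (0.76) and without a filter on genes (0.53), Hk1 without that filter (0.26) and without cycling cells (0.28), Pfkfb3 without that filter (0.28) and in cells of 10000 to 20000 UMIs (0.31), and Pgd lower with library totals (-0.25). Leaving out shared barcodes was chosen after seeing the data.

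Of the log2 fold changes that turned direction, only those of Pfkfb4 and Pdk2 had been called. Per cell, Slc2a6 was 0.41, Pfkm 0.48, Pfkfb4 0.087, Pdk2 0.0020, Pdk3 0.61, Pgd 0.48 and Tkt 0.57. With library totals, Gpi1 was -0.023, G6pdx -0.045 and Rpia -0.015, and at 10 CPM or more Gpi1 was -0.012 and G6pdx -0.033. Pdk3 was 0.012 without a filter on genes, 0.0057 in cells without UMIs of the epithelial list, 0.0054 without other cell types and 0.0037 without MHC class II cells. In cells of 10000 to 20000 UMIs G6pdx was -0.036, Pgls -0.061 and Taldo1 -0.084, in thinned cells G6pdx was -0.039, and with free RNA removed Rpia was -0.020. The Slc16a1 share of both lactate transporters, 1.07 percentage points higher in efferocytic cells on average but 15.9% to 14.9% in Experiment 1 and 15.5% to 18.7% in Experiment 2 (non-efferocytic to efferocytic), differed by -0.32 points without cycling cells. With 1 library left out the ranges were -0.0025 to 0.36 (Slc2a3), -0.048 to 0.38 (Hk2), -0.32 to 0.071 (Pfkm), -0.036 to 0.38 (Eno3), -0.013 to 0.013 (Pdk3), -0.0098 to 0.14 (G6pdx), -0.29 to 0.024 (Pgd), -0.13 to 0.051 (Tkt) and -0.032 to 0.32 (Taldo1).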

Other observations

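A small set of efferocytic cells had far more glycolytic RNA than the rest. Among cells of 10000 to 20000 UMIs, those with at least 2 UMIs of Arg1, an arginase of alternatively activated macrophages, held glycolytic enzymes at 9902 CPM in Experiment 1 (74 cells) and 9679 CPM in Experiment 2 (22 cells). The other efferocytic cells of that depth held 4270 and 4977 CPM. The pentose phosphate enzymes were at 1457 and 1682 CPM in the cells with Arg1 and at 1655 and 1912 CPM in the others, and Ldha was at 1249 and 1199 CPM against 419 and 452 CPM. Only 5 non-efferocytic cells in each experiment met the same rule, with 3097 and 2970 CPM of glycolytic enzymes. The same cells split by cycling genes or by MHC class II genes differed less: 4266 and 4776 CPM with cycling genes against 4448 and 5063 CPM without, and 4406 and 4735 CPM with MHC class II genes against 4419 and 5009 CPM without. Cells are not replicates, and these values were not tested.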
